A study of Mus musculus with 72 samples.

Results

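Lpo, Znrf4, Srfbp1, Crtam, Sfi1 and Tmem51 are 6 genes, of the 37108 gene symbols in the count tables of the series, that were selected on their F2 testis counts, which were higher in the IVF libraries than in the naturals. Because those values made the choice, they are given as a description without a test. The genes were then followed, library by library, in all 7 RNA-Seq tables, which hold 72 libraries (32 naturals and 40 IVF). All 6 genes have a row in every table.

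F1 males came from CF-1 females and SJL/B6 males heterozygous for GFP. In the IVF group, oocytes of superovulated CF-1 females were fertilized in vitro, cultured to blastocysts and transferred to pseudopregnant CF-1 females. Naturals were conceived by mating, without superovulation, culture or transfer, and pups of both groups were fostered. F1 testes came from E18.5 fetuses (4 naturals, 6 IVF), 12-week males (5 of each group) and 39-week males (4 naturals, 6 IVF). For F2, F1 males of either group were mated at 12 weeks to CF-1 wild-type females, so an F2 animal called IVF was itself conceived naturally and had an IVF-conceived father. At 12 weeks, F2 testes (5 naturals, 7 IVF), male livers (5 and 5), female livers (5 and 6) and ovaries (4 and 5) were sequenced. F2 pups were counted from 4 breeding pairs per group, so some F2 animals may share a sire. Which F2 animals shared a litter or a sire is not given in the sources used here, so p-values measure the spread between these libraries. In such whole-tissue RNA, fewer cells of a type and less RNA per cell cannot be told apart.

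The genes belong to different processes. Lpo encodes lactoperoxidase, a secreted haem peroxidase of milk, saliva and tears. Znrf4 encodes a membrane-bound RING ubiquitin ligase of the endoplasmic reticulum, of a family that pairs a protease-associated domain with a RING finger, and is known for its expression in spermatids. Srfbp1 encodes a binding protein of serum response factor, the transcription factor of actin and immediate early genes. Crtam encodes an immunoglobulin superfamily receptor of activated cytotoxic lymphocytes, whose ligand Cadm1 is abundant in the seminiferous epithelium. Sfi1 encodes a centrin-binding protein of the centrosome. Tmem51 encodes a transmembrane protein of little-known function.

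In the RefSeq annotation of GRCm38.p6, the assembly also called mm10, Lpo spans chr11:87806428-87826114 and Znrf4, a short gene, spans chr17:56511248-56512483. Crtam lies at chr9:40972798-41004628, Sfi1 at chr11:3131850-3203347 and Tmem51 at chr4:142030990-142084928. Lpo and Sfi1 share a chromosome and lie far apart on it. Sfi1 overlaps 6 other annotated genes, among them Pisd-ps1 and Eif4enif1, and Tmem51 overlaps Tmem51os1. Reads of overlapping genes can be hard to assign. A search of all GENCODE M21 transcripts for stretches of at least 100 bases with at least 95% identity found none outside the gene itself for Lpo, Znrf4, Srfbp1 or Crtam. For Sfi1 it found 396 bases at 95.5% identity in Gm2420 and 167 bases at 100% identity in Drg1, and for Tmem51 it found 243 bases at 100% identity in its antisense partner Tmem51os1, so values of Sfi1 and Tmem51 are less certain.

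The RefSeq promoter table held 3 of the 6 genes (Lpo, Znrf4 and Tmem51). Their promoter windows are shown as a description of genes that were chosen on their F2 testis values. Whether the start regions bear on those values was not tested. Each line gives the 250 bases before the start that the RefSeq promoter table uses, 5′ to 3′ on the strand of the gene (the minus strand for all 3), at chr11:87826115-87826364 for Lpo, chr17:56512484-56512733 for Znrf4 and chr4:142084305-142084554 for Tmem51. The windows of Lpo and Znrf4 adjoin the ends of the genes, whereas that of Tmem51 lies within the span of the gene, before the start of an inner transcript. Capitals mark matches on either strand to the TATA box TATAAA, the CCAAT box, the GC box GGGCGG, the cAMP response element TGACGTCA, its shorter form TGACG, which lies within it, or the X box core GTTGCC.
Lpo: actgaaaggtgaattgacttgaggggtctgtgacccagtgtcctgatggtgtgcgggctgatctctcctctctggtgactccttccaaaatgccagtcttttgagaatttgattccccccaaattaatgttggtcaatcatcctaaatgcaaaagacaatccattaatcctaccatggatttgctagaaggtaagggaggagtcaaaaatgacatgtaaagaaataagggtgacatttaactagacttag
Znrf4: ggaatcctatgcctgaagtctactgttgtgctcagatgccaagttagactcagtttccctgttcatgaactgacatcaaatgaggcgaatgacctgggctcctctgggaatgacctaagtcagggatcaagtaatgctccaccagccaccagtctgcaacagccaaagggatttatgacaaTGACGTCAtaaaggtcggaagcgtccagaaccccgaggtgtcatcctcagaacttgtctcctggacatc
Tmem51: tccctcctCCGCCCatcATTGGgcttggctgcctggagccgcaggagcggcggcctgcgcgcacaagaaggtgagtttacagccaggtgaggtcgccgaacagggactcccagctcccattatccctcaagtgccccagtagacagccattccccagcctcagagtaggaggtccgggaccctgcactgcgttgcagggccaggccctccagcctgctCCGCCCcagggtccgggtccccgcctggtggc

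TGACGTCA begins 69 bases before the Znrf4 start. It occurred in 1.62% of the 27025 promoter windows of that length, and TGACG in 17.9%. The Lpo window held none of the 6 motifs. In the Tmem51 window, GGGCGG matched on the other strand at 242 and 32 bases before the start, and CCAAT at 233 bases; 32.9% of all windows held GGGCGG and 34.5% held CCAAT. GC content was 42% for Lpo, 49.6% for Znrf4 and 67.6% for Tmem51, against a median of 52.0% over all windows. A match is a description of letters and not of binding.

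Total counts per library ranged from 543745 to 90441392 over the 7 tables and from 20840178 to 27346141 in F2 testes. Levels are given as CPM (counts divided by the library total, scaled by TMM within a table), so levels of different tables are set side by side and not tested unless a joint fit is named. In F2 testes the sums of germ cell markers overlapped between groups, with 1018 to 1086 CPM in naturals and 973 to 1103 CPM in IVF for 6 spermatocyte genes, and 10701 to 13910 CPM and 10840 to 14766 CPM for 5 elongating spermatid genes. Sums of the 7 T and NK cell markers, mostly Cd3d, were 7.24 to 10.9 CPM in naturals and 6.56 to 9.19 CPM in IVF. Of the 6 epididymis markers, Crisp1, Lcn5, Lcn8, Spag11b and Adam28 had at most 3 counts in every library, and the sixth, Rnase10, was upregulated, taking the sum from 2.73 to 4.50 CPM in naturals to 3.71 to 9.30 CPM in IVF. Its part in the values below was not tested. Of 5 Leydig cell markers, 1 was called upregulated by edgeR (sums 527 to 730 CPM in naturals and 634 to 870 CPM in IVF), and its part was not tested either. Summed hepatocyte markers reached 21.5 CPM in 1 F2 natural testis, against at most 1.07 CPM in the IVF testes. Naturals 1 and 2 and IVF 3 and 4 were nearly identical. Log2 fold changes of the 6 genes with each of these pairs counted as 1 are given below. Summing these libraries took the genes called between IVF and natural F2 testes from 196 to 92.

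In F2 testes, Lpo showed the widest gap between the groups of the 6 genes as a ratio, whereas in CPM the difference was largest for Znrf4. Lpo levels in naturals 1 to 5 were 9.79, 9.00, 8.15, 9.94 and 7.08 CPM. In the 7 IVF testes they ranged from 29.6 to 36.3 CPM, with a median of 32.5 CPM. The groups did not overlap, and the lowest IVF library was 2.98 times the highest natural. Mean levels were 8.79 ± 1.19 CPM in naturals (SD, n = 5) and 32.3 ± 2.48 CPM in IVF (SD, n = 7), or 1.88 ± 0.09 (SE) as a fitted log2 fold change.

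Znrf4 was by far the most abundant per transcript length, with 165 CPM per kb of its longest transcript in naturals, whereas the other 5 genes lay between 0.955 and 7.33 CPM per kb on the same scale. Its levels were 181, 180, 216, 198 and 201 CPM in naturals 1 to 5. In IVF testes they ranged from 304 to 421 CPM with a median of 393 CPM, and IVF 7 stood apart below the other 6, which lay between 386 and 421 CPM. The groups did not overlap. The log2 fold change was 0.98 ± 0.07 (SE).

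Srfbp1 and Crtam differed by 1.84-fold and 1.88-fold, with little spread within a group. For Srfbp1 the naturals had 20.01, 21.3, 18.1, 20.7 and 17.3 CPM, and the IVF testes ranged from 31.8 to 39.1 CPM with a median of 35.7 CPM. For Crtam the naturals had 25.5, 24.2, 26.2, 21.3 and 24.9 CPM, and the IVF testes ranged from 37.6 to 51.7 CPM with a median of 46.2 CPM. Neither pair of groups overlapped. The log2 fold changes were 0.88 ± 0.07 (SE) for Srfbp1 and 0.91 ± 0.08 (SE) for Crtam. The summed T and NK cell markers, cells in which Crtam is known, overlapped between the groups in the same libraries, and of the 2 that passed the filter 0 were called by edgeR. Most of that sum was Cd3d (means of 7.08 CPM in naturals and 6.21 CPM in IVF), so it says little of the other markers. Among these, Cd3e, Cd8a and Nkg7 had higher means in IVF, and Cd2, Cd3g and Prf1 had lower ones. The part of such cells in the Crtam values was not tested.

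Sfi1 and Tmem51 were less even within the IVF group. Sfi1 had 15.1, 16.0, 12.8, 18.4 and 14.8 CPM in naturals, and 18.9 to 39.7 CPM in IVF with a median of 32.3 CPM. IVF 7, the lowest, was 1.02 times the highest natural, so the groups touched without overlap. Tmem51, the gene with the fewest counts (31 to 66 in naturals, 48 to 120 in IVF), had 1.84, 2.14, 1.17, 2.47 and 1.32 CPM in naturals and 2.12 to 5.81 CPM in IVF with a median of 3.66 CPM. In 6 of 7 IVF libraries it exceeded every natural, and IVF 2 lay among the naturals. The log2 fold changes were 1.02 ± 0.17 (SE) for Sfi1 and 1.02 ± 0.23 (SE) for Tmem51.

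**Figure D1:**
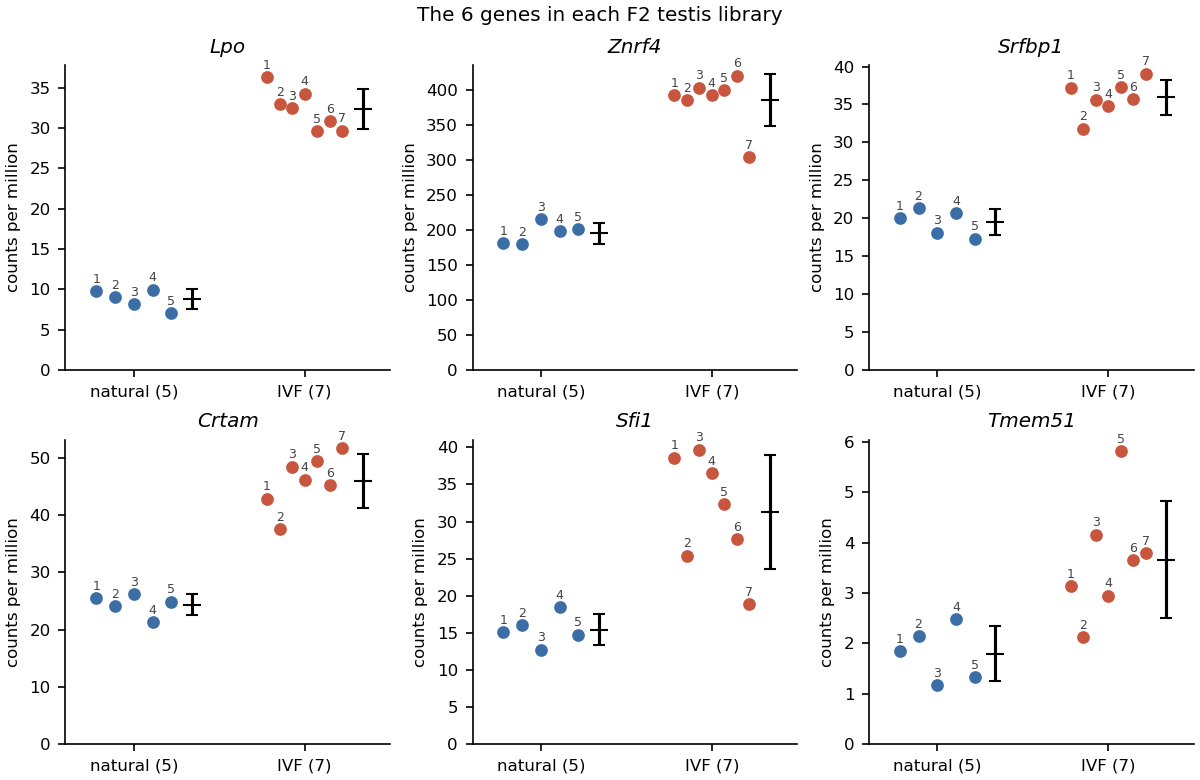
Level of each of the 6 genes (CPM, linear axis from 0) in each F2 testis library, with blue points for the 5 naturals and red points for the 7 IVF libraries, replicate numbers beside the points, and the mean ± SD as a black bar. The groups are apart for Lpo, Znrf4, Srfbp1 and Crtam, touch for Sfi1 at IVF 7 and overlap for Tmem51 at IVF 2.

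All 6 genes were above the 1.5-fold limit by their choice. Here 0.48% of 21454 genes were called upregulated, and the groups did not overlap with IVF higher for 1.04% of the genes. With the near-identical libraries summed, leaving 4 naturals and 6 IVF, the log2 fold changes were 1.89 for Lpo, 0.95 for Znrf4, 0.91 for Srfbp1, 0.91 for Crtam, 0.97 for Sfi1 and 1.06 for Tmem51.

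To determine if the genes changed together from animal to animal, log2 CPM values were correlated between genes after the group means were removed. Over the 12 F2 testes, 9 of the 15 pairs had a Pearson r above 0, with a median of 0.16 and a range from -0.54 to 0.79. The highest was that of Srfbp1 and Tmem51, and the lowest that of Znrf4 and Srfbp1. Over the 30 F1 testes the median was -0.02, with 7 of 15 pairs above 0, and Srfbp1 and Tmem51 had an r of 0.12. Over the 20 adult F1 testes, without the E18.5 libraries in which Lpo and Znrf4 were near 0, the median was 0.04, with 8 of 15 pairs above 0 and a range from -0.47 to 0.45. The libraries of a table share scaling and, in part, depth, and the points of the near-identical libraries are not independent.

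To ascertain whether the same genes differed in the fathers' generation, F1 testes of IVF-conceived males and naturals were compared at 3 ages. No gene of the 6 was called (edgeR quasi-likelihood test, two-sided, Benjamini-Hochberg adjusted p under 0.05 and over 1.5-fold), where the share of all genes called was 0.221% for the E18.5 testes, 0.199% for those of 12 weeks and 0.00996% for those of 39 weeks. Of the genes that passed the filter (4 for E18.5 and all 6 in adults), 1 at each age had an unadjusted p under 0.05, as did 17.7%, 12.9% and 10.5% of all genes tested, in order of age. The gene at E18.5 was Crtam, whose value there is a description, as explained below. DESeq2 called 0 of the 6 at each age.

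In adult F1 testes, Lpo varied widely within each group. At 12 weeks it had 22.7, 28.0, 29.3, 26.2 and 7.72 CPM in naturals and 11.9, 31.4, 27.2, 17.2 and 36.5 CPM in IVF, and the groups overlapped, with IVF 2 and 5 above every natural and natural 5 below every IVF testis (log2 fold change 0.12 ± 0.41, adjusted p = 0.936 in edgeR). At 39 weeks it had 16.8, 19.2, 10.1 and 11.3 CPM in naturals and 13.1 to 39.7 CPM in IVF, with a median of 25.4 CPM. This was the largest 39-week difference among the 6 genes (log2 fold change 0.77 ± 0.32), and it did not pass the test (adjusted p = 0.431 in edgeR).

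Znrf4 had 284, 267, 508, 492 and 516 CPM in 12-week naturals and 507, 663, 716, 318 and 498 CPM in IVF (log2 fold change 0.39 ± 0.29, adjusted p = 0.635 in edgeR). Naturals 1 and 2 and IVF 4 were low, and the other 7 libraries lay near or above 490 CPM. At 39 weeks the naturals had 299 to 496 CPM and the IVF testes 225 to 615 CPM (log2 fold change -0.05 ± 0.30, adjusted p = 0.972 in edgeR). Srfbp1 was similarly uneven at 12 weeks, with 36.3, 38.3, 28.6, 21.4 and 6.80 CPM in naturals and 36.2, 33.98, 10.2, 22.9 and 21.8 CPM in IVF (log2 fold change -0.08 ± 0.48, adjusted p = 0.969 in edgeR), whereas at E18.5 it ranged from 19.5 to 29.6 CPM over both groups.

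Crtam, by contrast, was nearly constant in the 12-week naturals, at 49.0, 49.8, 49.9, 50.1 and 50.4 CPM. The IVF testes had 52.6, 59.6, 68.4, 53.5 and 48.8 CPM, of which 4 of 5 were above every natural, and the difference was small (log2 fold change 0.18 ± 0.09, adjusted p = 0.379 in edgeR). At 39 weeks it had the opposite sign without passing the test (log2 fold change -0.24 ± 0.14, adjusted p = 0.569 in edgeR). At E18.5 Crtam rested on 2 to 8 counts per natural library and 6 to 41 per IVF library, giving 0.666 to 1.64 CPM and 0.647 to 3.75 CPM, with 5 of 6 IVF libraries above every natural. The log2 fold change of 1.20 ± 0.49 was the largest F1 value of the 6 genes and was not called. Crtam met the filter on low counts there through the IVF libraries, so this value is a description. Total counts were 2904727 to 4869139 in the E18.5 naturals and 8500054 to 15745480 in IVF, so depth and group cannot be told apart at this age.

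Sfi1 and Tmem51 did not separate in F1 testes. At 12 weeks Sfi1 had 13.3, 15.0, 9.92, 14.4 and 24.3 CPM in naturals and 11.6, 22.2, 11.4, 11.1 and 19.3 CPM in IVF (log2 fold change -0.02 ± 0.27, adjusted p = 0.985 in edgeR). Tmem51 had 4.35, 3.09, 4.54, 3.29 and 2.78 CPM and 2.61, 3.98, 4.02, 5.39 and 3.79 CPM (log2 fold change 0.13 ± 0.23, adjusted p = 0.855 in edgeR). At E18.5 and 39 weeks their log2 fold changes lay between 0.03 and 0.23, each within 1 SE of 0.

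**Figure D2:**
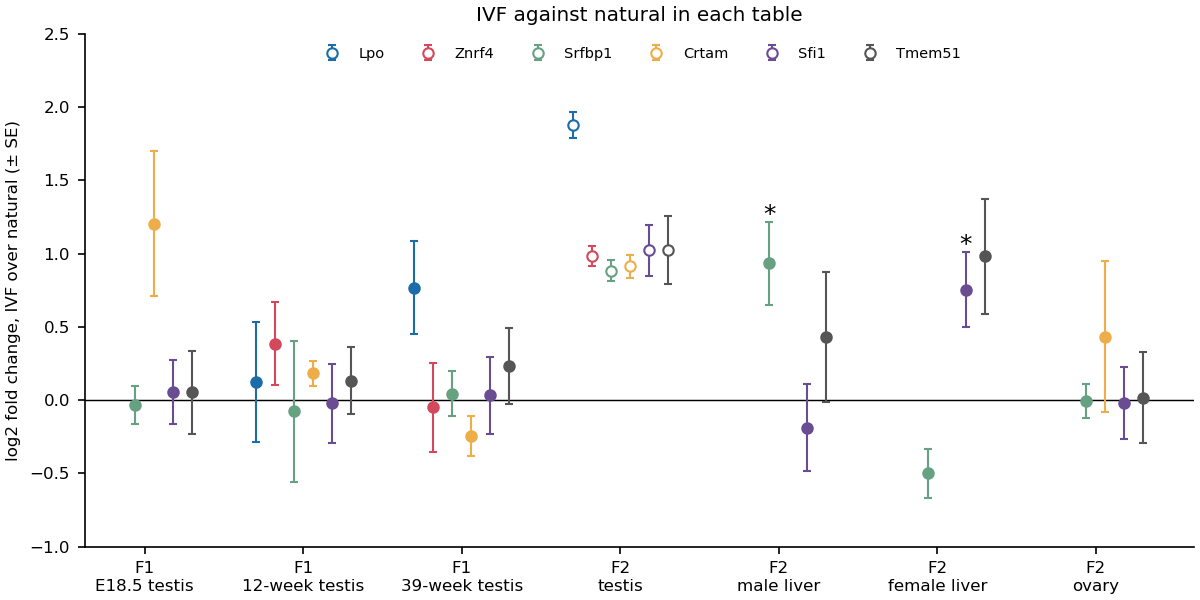
Fitted log2 fold change of IVF over natural (points, with bars of ± 1 SE) for each gene in each of the 7 tables, where open points mark the F2 testis values that chose the genes and stars mark genes called in the other tables. Only Srfbp1 in F2 male liver and Sfi1 in F2 female liver carry a star, and genes that did not pass the filter on low counts have no point.

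The testis tables at 12 weeks hold both generations at the same age, and they were scaled together to see which F2 group lay near the F1 testes. F1 and F2 testes differ in cross and in count table, which cannot be told apart from generation, and the F2 values are those that chose the genes, so no test was made. For Znrf4, Crtam and Tmem51, all 5 F2 naturals lay below every one of the 10 F1 testes, naturals and IVF alike, as was so for 2.69% of 19968 genes. Nothing is read from that count, since the choice of genes used the F2 levels. Znrf4 had 181 to 217 CPM in F2 naturals, 263 to 715 CPM in F1 and 310 to 424 CPM in F2 IVF on this joint scale. Here all 7 F2 IVF testes lay within the F1 range.

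Crtam had 21.5 to 26.3 CPM in F2 naturals, 48.1 to 68.4 CPM in F1 and 37.9 to 52.7 CPM in F2 IVF, of which 3 of 7 lay within the F1 range and 4 below it. Tmem51 had 1.17 to 2.4998 CPM in F2 naturals and 2.57 to 5.33 CPM in F1, and 5 of 7 F2 IVF testes lay within the F1 range. On the log2 scale, F2 naturals were below F1 naturals by a difference of -0.99 for Znrf4, -1.001 for Crtam and -0.97 for Tmem51, whereas F2 IVF differed from F1 IVF by -0.41, -0.27 and -0.10.

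Lpo was more spread in F1, with 7.13 to 10.0 CPM in F2 naturals, 7.58 to 35.9 CPM in F1 and 29.8 to 36.7 CPM in F2 IVF. Of the 10 F1 testes, 9 lay above every F2 natural, and the exception was natural 5, the library also lowest for Srfbp1. For Sfi1 the F2 naturals (12.8 to 18.6 CPM) lay within the F1 range of 9.77 to 23.9 CPM, and 6 of 7 F2 IVF testes lay above every F1 testis, at up to 40.0 CPM.

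Srfbp1 in F2 naturals (17.4 to 21.5 CPM) and in 6 of 7 F2 IVF testes (32.1 to 39.8 CPM in all 7) fell inside the broad F1 range of 6.67 to 37.8 CPM. The log2 differences between generations were -0.19 (naturals) and 0.68 (IVF) for Srfbp1, 0.08 and 1.10 for Sfi1 and -1.21 and 0.52 for Lpo. Over all genes of this comparison, 7.17% differed by more than 1.5-fold between the naturals of the generations (4.21% lower in F2) and 11.2% between the IVF groups, with medians near 0 (0.002 and 0.001).

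**Figure D3:**
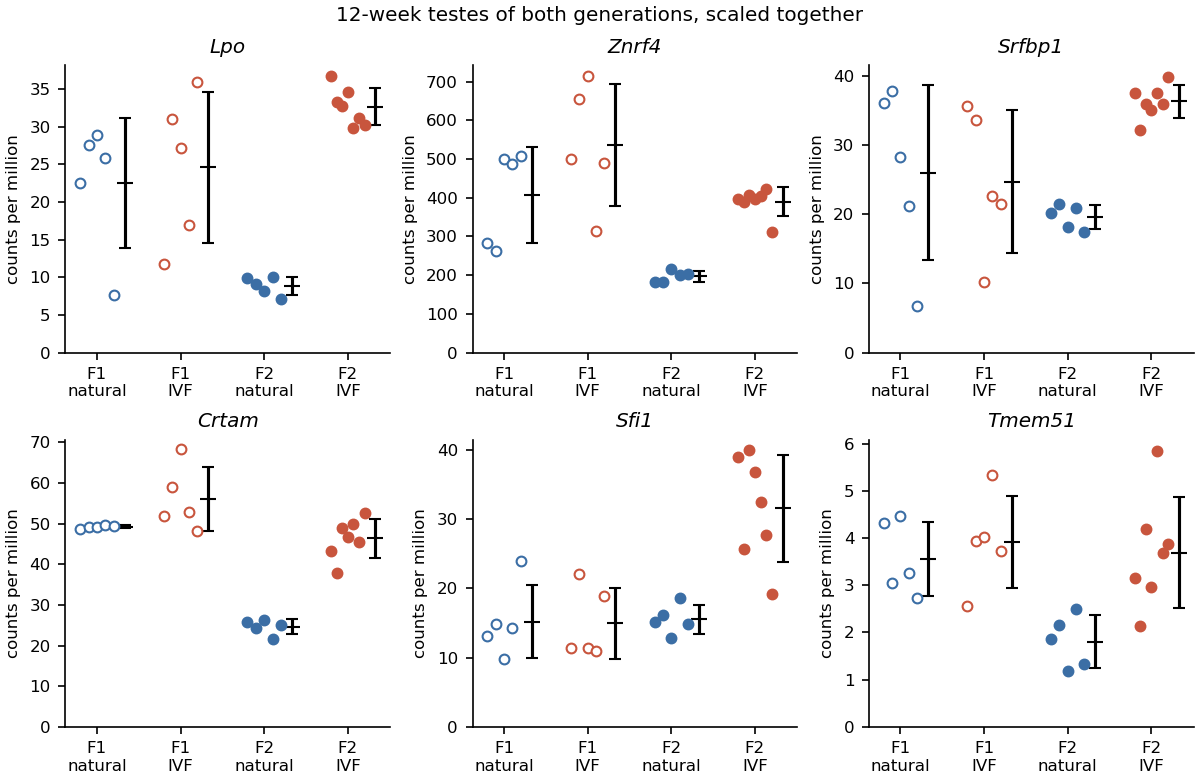
Level of each gene (CPM, linear axis from 0, 1 scaling over all 22 libraries) in 12-week testes of F1 naturals, F1 IVF (open points), F2 naturals and F2 IVF (filled points), with mean ± SD as a black bar. Points of the F2 naturals sit below all F1 points for Znrf4, Crtam and Tmem51, whereas for Sfi1 it is the F2 IVF points, 6 of 7, that sit above all F1 points.

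Levels over development were compared in naturals, 12 weeks against E18.5, in a joint fit that shares no library with the F2 contrast. In this fit 77.4% of all genes were called and 41.7% were called upregulated at 12 weeks. Lpo, Znrf4 and Crtam were near 0 counts at E18.5 and passed the filter only through the 12-week libraries, so they had to differ, and their values are a description. Znrf4 had 2, 0, 0 and 2 counts in the E18.5 naturals and 5269 to 8990 counts at 12 weeks, a ratio of pooled CPM of 1664 (exact Poisson 95% interval 649.8 to 6107, counting error alone). Pooled ratios were 41.1 for Crtam (26.6 to 67.3) and 19.0 for Lpo (12.3 to 31.1), each from 20 counts at E18.5. These ratios depend on the scaling, as the fit with TMM factors gave 2782-fold, 71.1-fold and 32.95-fold for Znrf4, Crtam and Lpo.

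Round spermatids, absent from the testis before birth, are marked by 5 genes of which the sum was 0.951 to 1.85 CPM in E18.5 naturals and 819 to 864 CPM in 12-week naturals. The part of the germ cells in these differences was not tested. Srfbp1 did not pass the test (log2 fold change 0.92 ± 0.44, adjusted p = 0.0759 in edgeR), and its pooled CPM ratio was 1.13 (1.03 to 1.25), against 1.89-fold in the fit. Sfi1 and Tmem51 had fitted differences near 0 (0.13 ± 0.30 and 0.07 ± 0.29), while their pooled CPM ratios were 0.630 and 0.614, so their direction depended on the scaling. The joint fit had a median log2 fold change of 0.15 over all genes.

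From 12 to 39 weeks none of the 6 was called in naturals with edgeR, with 0.00499% of all genes called, 0 of the 6 at an unadjusted p under 0.05 and 0 with DESeq2. The largest differences were those of Lpo (-0.60 ± 0.33, adjusted p = 0.415 in edgeR) and Crtam (0.22 ± 0.14, adjusted p = 0.476 in edgeR). Age and count table cannot be told apart in either comparison.

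Outside the testis, Lpo and Znrf4 were close to or at 0. Lpo had 0 counts in all 21 liver libraries, which allows up to 0.0221 CPM in the pooled male livers and 0.0102 CPM in the pooled female livers (3 counts over the table), and 2 counts in the 9 ovaries. Znrf4 had 0 counts in 18 of the 21 livers and 16 counts over the 9 ovaries (0.0896 CPM pooled). The exceptions were natural male livers 1, 4 and 5, with 22, 8 and 16 counts. The spermatid protamine Prm2 was highest in the same livers, with 327, 219 and 631 counts in them, 24 and 17 counts in IVF 4 and 5, where Znrf4 was at 0, and 0 counts in the other 5 male livers. Acrv1, of the acrosome, had 7, 0 and 2 counts in them. Crtam was likewise low, at 1.31 CPM pooled over the ovaries, 0.0515 CPM over the male livers and 0.0610 CPM over the female livers.

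Srfbp1, Sfi1 and Tmem51 were present in testis, liver and ovary. Srfbp1 had higher mean levels in testes of every age and in ovaries than in livers on the scale of each table, with means of 18.3 to 35.9 CPM in gonads and 5.58 to 9.94 CPM in livers, and ovaries and livers did not overlap (ovaries 15.5 to 20.2 CPM, livers 2.86 to 12.7 CPM). On the same scales, Sfi1 was highest in ovaries (41.1 ± 11.8 CPM in naturals, SD, n = 4) and next in F2 IVF testes, whose ranges overlapped, and was lowest in male liver of IVF (4.90 CPM). Tmem51 was highest in ovaries (15.6 ± 5.45 CPM in naturals, SD, n = 4) and lowest in F2 natural testes, the one group whose range was apart from the next, but a joint fit did not place ovary above female liver for Tmem51.

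In a joint fit of F2 natural ovaries and female livers, where 72.1% of genes were called and 42.6% were called upregulated in ovary, Sfi1 was upregulated (log2 fold change 1.33 ± 0.28, adjusted p = 8.9e-04 in edgeR), and 0.51 with an adjusted p of 0.0785 once the trend with GC content was removed. Srfbp1 had a fitted log2 fold change of -0.49 ± 0.18 (adjusted p = 0.0269 in edgeR, under the fold limit), the opposite direction to its CPM on each table's own scale, so its order between these tissues depends on the scaling. Tmem51 did not pass the test (log2 fold change -0.14 ± 0.39, adjusted p = 0.758 in edgeR), but with the GC trend removed it was called lower in ovary (-1.68, adjusted p = 0.00277 in edgeR). Crtam passed the filter only through the ovaries, since 4 of the 5 natural livers held 0 counts of it. Its log2 fold change (1.06 ± 0.73) is therefore a description, and it was not called. That value rested on female liver natural 5, which held all 14 Crtam counts of the natural livers. Without this library the other natural livers were at 0, so Crtam had to differ. Its call as higher in ovary there is a description, with a fold that cannot be read from the fit.

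**Figure D4:**
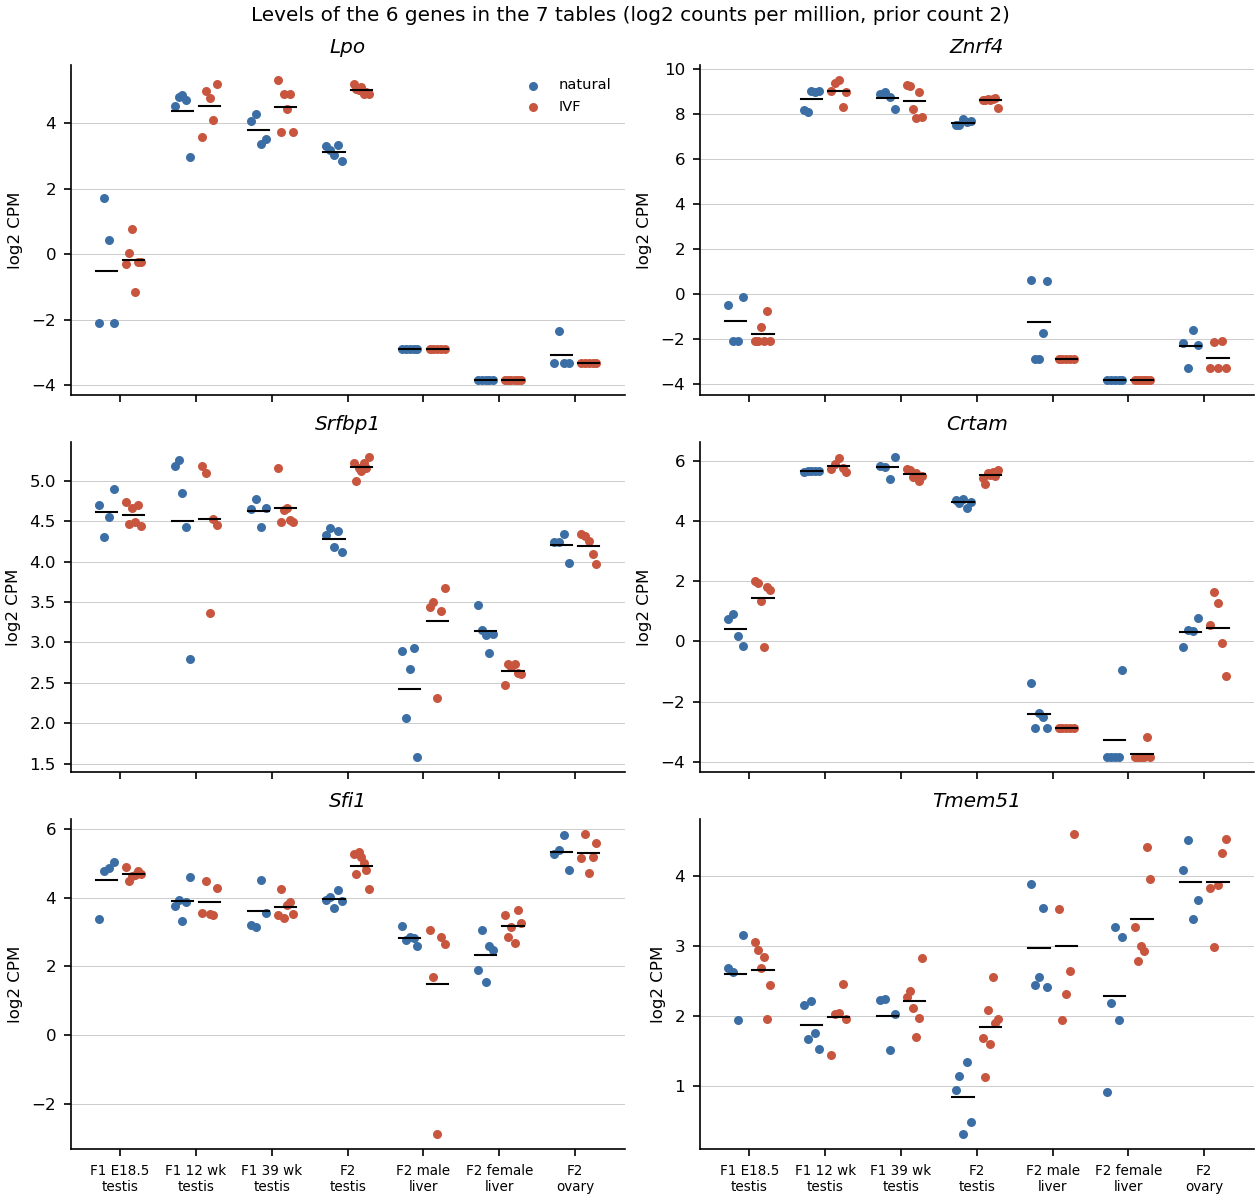
Log2 CPM (prior count of 2) of each gene in each library of the 7 tables, with blue points for naturals, red points for IVF and a black line at the mean of each group. Lpo, Znrf4 and Crtam stand high in adult testes and low elsewhere, whereas Srfbp1, Sfi1 and Tmem51 are present in every tissue.

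In F2 ovaries no gene of the 6 was called between IVF and naturals, and Lpo and Znrf4 did not pass the filter. By edgeR 0% of 16502 genes were called (1757 genes had an unadjusted p under 0.05, none of them among the 6), and DESeq2 called 0 of the 6. Of the 4 genes that passed the filter, Crtam had the largest difference (log2 fold change 0.43 ± 0.52, adjusted p = 0.782 in edgeR), from 0.769 to 1.62 CPM in naturals and 0.349 to 3.01 CPM in IVF. Srfbp1 was the most even, at 18.9, 18.9, 20.2 and 15.7 CPM in naturals and 20.2, 19.8, 19.1, 17.0 and 15.5 CPM in IVF (log2 fold change -0.01 ± 0.12). The groups overlapped for each gene.

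In F2 male livers Srfbp1 was upregulated. The naturals had 7.29, 4.04, 6.23, 7.46 and 2.86 CPM and the IVF livers 10.7, 11.2, 4.82, 10.3 and 12.7 CPM, so that 4 of 5 IVF livers were above every natural. The lowest of the IVF livers, IVF 3, had 2 counts in a library of 543745, and IVF 2 had 18 counts. The log2 fold change was 0.93 ± 0.28 (adjusted p = 0.0184 in edgeR), where 31.1% of genes of the table were called and 13.9% were called upregulated. In edgeR it was 1.01 without the 2 libraries of lowest total (adjusted p = 0.0148). The call was lost in edgeR with the trend with GC content removed (0.63, adjusted p = 0.129) and without natural 2 (0.83, adjusted p = 0.0546). With the replicate block it was also lost, while the fold stayed about as large (0.97, adjusted p = 0.0520 in edgeR). Sfi1 and Tmem51 did not pass the test (log2 fold changes -0.19 ± 0.30 and 0.43 ± 0.44). The sign of Sfi1 turned with the GC trend removed (0.18) and without the 2 libraries of lowest total (0.04), one of which, IVF 3, had 0 counts of Sfi1. The value of Tmem51 rested on IVF 5, at 23.9 CPM, without which it was -0.18, and it was 1.21 with the GC trend removed.

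Cell type markers moved in the same male livers. Of 6 macrophage markers 3 were called higher and 1 lower (sums 78.1 to 119 CPM in naturals and 75.3 to 152 CPM in IVF). Summed genes of the Sertoli list did not overlap, with 19.0 to 31.9 CPM in naturals and 4.82 to 16.8 CPM in IVF, nor did those of the spermatogonia list (122.3 to 133.2 CPM and 133.3 to 345 CPM). Hepatocyte genes had 66793 to 91805 CPM and 82642 to 133742 CPM (1 of 5 called higher), and blood genes 258 to 461 CPM and 410.4 to 828.5 CPM (1 called higher and 1 lower). The part of these in the values was not tested.

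In F2 female livers Srfbp1 had the opposite sign. The naturals had 10.97, 8.85, 8.47, 7.26 and 8.56 CPM and the 6 IVF livers 5.49 to 6.59 CPM with a median of 6.25 CPM, without overlap. The log2 fold change of -0.50 ± 0.17 (adjusted p = 0.0201 in edgeR) was under the fold limit, and it was -0.04 with the trend with GC content removed. With all libraries thinned to the smallest it was -0.66 and past the fold limit (adjusted p = 0.0218 in edgeR). Of all genes here, 13.1% had IVF lower without overlap, 39.4% were called and 21.6% were called upregulated. Sfi1 was upregulated, with 3.66, 8.20, 2.82, 5.99 and 5.52 CPM in naturals and 6.37 to 12.4 CPM in IVF with a median of 9.16 CPM (log2 fold change 0.75 ± 0.25, adjusted p = 0.0220 in edgeR).

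That call for Sfi1 was not kept in edgeR with the GC trend removed (log2 fold change 0.31, adjusted p = 0.350) or without natural 1 (0.67, adjusted p = 0.0509) or IVF 5 (0.65, adjusted p = 0.0562). Nor was it kept with the replicate block, where the fold stayed about as large (0.79, adjusted p = 0.0634 in edgeR). Tmem51 had 1.83, 4.50, 9.60, 3.79 and 8.69 CPM in naturals and 6.81 to 21.1 CPM in IVF with a median of 8.74 CPM, and its log2 fold change of 0.98 ± 0.39 just missed the threshold (adjusted p = 0.0517 in edgeR) and was 0.04 with the GC trend removed. Depth differed with these values: the highest Sfi1 and Tmem51 levels were those of IVF 5, which had 90441392 counts, and the lowest Sfi1 levels were those of naturals 1 and 3, which had 3947645 and 4248128 counts. This order did not hold throughout for either gene. For Sfi1, natural 5 (34149676 counts, 5.52 CPM) lay below natural 2 (12997057 counts, 8.20 CPM). For Tmem51, natural 3 had the highest natural level, above 4 of the 6 IVF livers. In edgeR, with all libraries thinned to the smallest, the log2 fold changes were 0.99 for Sfi1 and 1.15 for Tmem51 (adjusted p = 0.0108 and 0.0132). Marker sums moved too: hepatocyte genes had 159454 to 236530 CPM in naturals and 104560 to 121216 CPM in IVF (2 of 5 called lower), and blood genes 440.3 to 744 CPM and 144 to 344 CPM (2 of 3 called lower). Macrophage genes had 50.8 to 129 CPM and 95.8 to 181 CPM (1 of 6 called higher), and genes of the Sertoli list had 10.97 to 14.88 CPM and 14.91 to 20.6 CPM, with 1 of 2 tested called higher. Their part in these values was not tested.

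Genes of related function, taken from lists, were read in F2 testes beside the 6. No list had a gene called by edgeR or by DESeq2, where 0.914% of all genes were called by edgeR. Of 7 tested haem peroxidases and partners of Lpo, 6 had a log2 fold change above 0 (median 0.20), with 1 at an unadjusted p under 0.05. Pxdn, a matrix peroxidase, had the highest CPM of the list, at 7.80 ± 1.07 CPM in naturals and 8.97 ± 1.60 CPM in IVF (SD).

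Of 16 ubiquitin ligases of the Znrf4 family and spermatid chaperones, 6 were above 0 (median -0.03, 1 at an unadjusted p under 0.05). The chaperones Calr (log2 fold change 0.11) and Clgn (0.13), which fold glycoproteins in spermatids, had the highest CPM. The spermatid ligase Rnf133 had 209 ± 18.4 CPM in naturals and 207 ± 16.6 CPM in IVF (SD). It was singled out after its values were seen. For 21 genes of serum response factor, its cofactors and targets, 10 were above 0 (median -0.02, 5 at an unadjusted p under 0.05), with Actb and Actg2 at the highest CPM (log2 fold changes -0.08 and 0.07).

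Among 9 tested genes of the Crtam ligand and cytotoxic lymphocytes, 6 were above 0 (median 0.04, 0 at an unadjusted p under 0.05). Cadm1, the ligand, had 64.1 ± 3.80 CPM in naturals and 64.8 ± 5.65 CPM in IVF (SD), and Scrib, a polarity protein, had a log2 fold change of 0.04. The granzymes Gzma and Gzmb and perforin (Prf1), which mark cytotoxic cells, had means of 0.167, 0.0830 and 0.0602 CPM in naturals and 0.136, 0.0913 and 0.0227 CPM in IVF. Other genes of the list had higher means in IVF, among them Cd8a (0.00828 and 0.129 CPM), Nkg7 (0.229 and 0.317 CPM) and Ccl5 (0.224 and 0.387 CPM). None of these genes passed the filter, so none was tested. Of 25 centrin and centriole genes, 18 were above 0 (median 0.06, 6 at an unadjusted p under 0.05), and Odf2, of the centriole and sperm tail, and Cep63, of the centriole, had log2 fold changes of 0.17 and 0.07. Over all genes the median was 0.0005, and 13.9% had an unadjusted p under 0.05.

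The genes adjoining each of the 6 were also followed in F2 testes, 3 on each side in RefSeq order. Of these 36 genes, 15 passed the filter and 1 was called. Gm33258, a lncRNA gene 1.6 kb from Znrf4, was upregulated, from 0.912 to 1.77 CPM (log2 fold change 0.96 ± 0.24, adjusted p = 0.0414 in edgeR). The call was kept in 10 of 22 alternatives, with adjusted p-values from 0.00816 to 0.141, the highest with near-identical libraries summed. On the other side of Znrf4, Safb2, 48.5 kb away, had 64.8 CPM in naturals and 97.1 CPM in IVF (log2 fold change 0.58 ± 0.08, adjusted p = 5.0e-04 in edgeR), at the edge of the fold limit. Its paralog Safb, 72.5 kb away, had a log2 fold change of 0.25 ± 0.06 (adjusted p = 0.0289 in edgeR).

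Around the other 5 genes no tested neighbour was called. Next to Lpo, the myeloid peroxidase Mpo at 2.0 kb had 0.871 and 1.16 CPM (log2 fold change 0.41 ± 0.27) and Mks1 had 20.7 and 20.8 CPM. Next to Crtam, Jhy had 105 and 106 CPM and Ubash3b 8.07 and 7.79 CPM. Srfbp1 lies on chromosome 18, where Lox, 24.1 kb away, had 0.905 and 0.568 CPM (log2 fold change -0.66 ± 0.34, adjusted p = 0.401 in edgeR) and Ftmt, mitochondrial ferritin, 73.1 and 72.5 CPM. Gm33862, which overlaps Sfi1, had a log2 fold change of 0.75 ± 0.28, and 4930455G09Rik, 2.0 kb from Tmem51, had 0.97 ± 0.41 (adjusted p = 0.204 and 0.283 in edgeR).

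**Figure D5:**
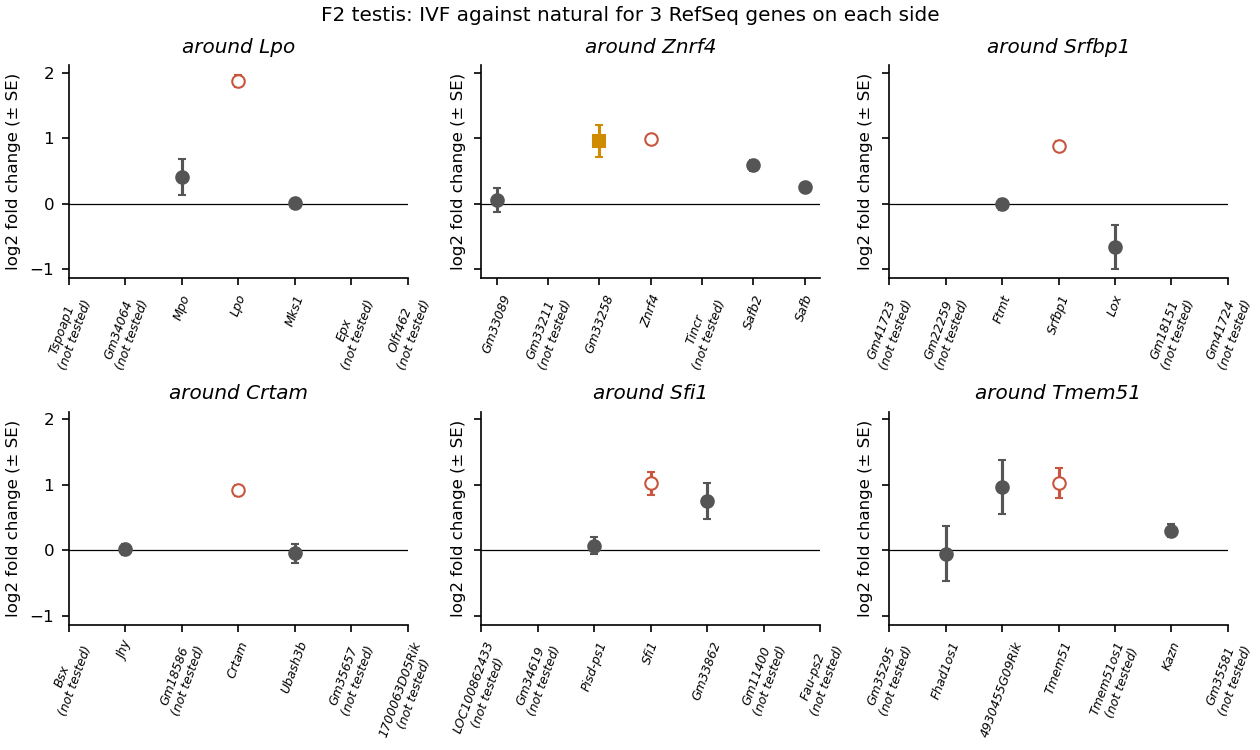
Fitted log2 fold change of IVF over natural in F2 testes (points, with bars of ± 1 SE) for the 3 RefSeq genes on each side of each of the 6 genes, in gene order and not to distance. Red open points are the 6 chosen genes, the orange square is the 1 neighbour called (Gm33258), grey points are other tested neighbours, and the neighbours of Znrf4 on both sides lie above 0.

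Genes most like each of the 6 over all 42 testis libraries were found by the Pearson r of log2 CPM after the 8 group means were removed, among 13365 genes tested in all 4 testis tables. For Znrf4 they were Rsph9 (r = 0.72), Abcf1 (0.65) and Zfp622 (0.62). Rsph9 and Abcf1 lie on chromosome 17, as Znrf4 does, and had F2 testis log2 fold changes of 0.42 and 0.35. Those of the other genes named here and below as most like the 6 ranged from -0.49 (Pold4) to 0.12 (Emg1). For Crtam they were Ccdc172, Cdca3 and Cds1 (r = 0.77, 0.76 and 0.74), for Sfi1 Cdc7, Ttc14 and Fbrs (0.75, 0.74 and 0.74), and for Lpo Ppp6r2, Gm16982 and Atp9b (0.70, 0.69 and 0.69).

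For Tmem51 they included Emg1 and Chrac1 (0.63 and 0.62), and for Srfbp1 they were Pold4, Mical1 and P2rx4 (0.60, 0.56 and 0.54). Of the 18 genes, Fbrs alone was also among the 3 most like its gene in F2 testes taken alone.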

How the data were processed

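Counts of 72 RNA-Seq libraries were analysed. Per the labels and the submitters' processing notes, the authors trimmed reads with Trimmomatic (0.32), aligned them to mm10 with STAR (2.3.0e) and counted them per gene with featureCounts (1.5.0). The deposited values are raw counts, 1 table per tissue and age, without normalization. Of the low counts, 60.0% to 94.3% per library are even, as if both mates of a pair had been counted, in which case counting intervals are too narrow. Genes with low counts were removed with filterByExpr, and IVF and naturals were compared within a table by the two-sided quasi-likelihood test of edgeR (4.0.16, in R 4.3.3) with TMM factors and Benjamini-Hochberg adjustment over all genes. A gene was called (up- or downregulated) at an adjusted p under 0.05 and over 1.5-fold. Maturation, ageing and ovary against liver were joint fits of naturals. DESeq2 (1.42.0) was an alternative, as were other scalings, filters, thinning, removal of the trend with GC content and leaving out each library. The fits were tested on simulated data. The members, lists, markers and rules were chosen with earlier results of these data known. The rules named, for each list, the pair of tested genes of highest CPM, 3 neighbours on each side in RefSeq order and the 3 genes most like each of the 6. Some genes that these rules name are not reported here. Promoters were taken from RefSeq (GRCm38.p6). Naturals 1 and 2 and IVF 3 and 4 of the F2 testis, and naturals 1 and 2 at 39 weeks, differed far less than other pairs. Whether they differed by more than sampling noise could not be settled, since counting both mates would widen that noise, and they were kept as separate libraries and summed in an alternative.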

Additional observations from a re-analysis of the deposited data

Results flagged for a closer look

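Of 66 groups of 4 to 7 libraries in which the 6 genes were examined, 2 held a library far from the others, where 3.3 would be flagged by chance. Znrf4 was low in F2 testis IVF 7, at 304.396 CPM, against 386 to 421 CPM in the other 6 IVF testes. This library was also the lowest of the IVF testes for Sfi1 and the highest for Srfbp1 and Crtam. Srfbp1 was high in the 39-week F1 testis IVF 1, at 35.6736 CPM, against 22.4 to 25.1 CPM in the other 5. The log2 fold change of Srfbp1 in F2 female livers was -0.4993, and every IVF liver lay below every natural, whereas in F2 testes every IVF library lay above every natural. The difference between these tissues was not tested.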

How the results depend on the processing

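In F2 testes all 6 genes stayed above 1.5-fold under the 22 alternatives. These refit the libraries on which the genes were chosen, so this is a description and not support. The number of genes called there was 196, and it became 336 with DESeq2, 92 with near-identical libraries summed, 345 with no fold limit and 111 to 224 with 1 library left out. In F2 male livers, 1 of the 6 was called, and 0 were called with the GC trend removed, with the replicate block and with both (0 to 1 with 1 library left out). With at least 10 counts in every library and with thinning it was 0 because none of the 6 passed the filter, so no call was lost by a test. In F2 female livers, 1 was called. There it became 2 with DESeq2 size factors, with DESeq2, with counts halved and with no fold limit, 3 with thinning, 0 with the GC trend removed, alone or with the replicate block, and 0 to 2 with 1 library left out. Maturation gave 3, all near 0 counts at E18.5, and 0 where every library needed at least 10 counts, a filter that removed those 3. Ovary against liver gave 1, and 2 with the replicate block, alone or with the GC trend removed, and with no fold limit (1 to 2 with 1 library left out). With the block Crtam was called there, but 4 of the 5 natural livers held 0 counts of it, so this call is a description. With the GC trend removed the gene called changed from Sfi1 (0.51, adjusted p = 0.0785 in edgeR) to Tmem51 (-1.68, adjusted p = 0.00277 in edgeR). With both the block and the GC trend removed, Sfi1 was not called (0.53, adjusted p = 0.170 in edgeR) and Tmem51 was (-1.31, adjusted p = 0.0460 in edgeR). Replicate numbers did not pair the libraries: correlations of same-numbered libraries ranged from -0.226 to 0.301. With the replicate block, Srfbp1 in male liver had a log2 fold change of 0.97 against 0.93 (adjusted p = 0.0520 in edgeR). In female liver Sfi1 had 0.79 against 0.75 (adjusted p = 0.0634 in edgeR) and Tmem51 0.91 against 0.98 (adjusted p = 0.0372 in edgeR). The gene called in female liver thus changed from Sfi1 to Tmem51, while the folds stayed about as large. No alternative reversed a called direction. Of the alternatives, 221 kept the count of a comparison within 1.5 times and 30 moved it further. For named genes, 923 were labelled the same, 31 stronger and 23 weaker. Same meant the same side of the threshold, whatever the sign of a gene that was not called. For the 6 genes in F2 testes it meant a log2 fold change within 1 within-group SD of the main fit, with no threshold. The 1 labelled moved was the list of genes most like the 6. The causes were not tested. Liver libraries of low total limit values there.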
